A study of Mus musculus with 47 samples.

Results

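The 8 genes described here, Cyp51, Tm7sf2, Msmo1, Nsdhl, Hsd17b7, Ebp, Sc5d and Dhcr7, encode enzymes that turn lanosterol into cholesterol. They were taken by symbol from a table of 53697 genes, and all 8 were present and passed the filter on low values. The cells were primary microglia, the resident macrophages of the brain, grown from the forebrain of C57BL/6 mice. E4 and E3 mice (Taconic lines) carry human APOE4 or APOE3 in place of mouse Apoe, KO mice (Jackson) are Apoe-/-, Het mice of the same line are Apoe+/-, and WT mice (Jackson) have both mouse alleles. Each genotype was left untreated or exposed for 3 h to myelin, the cholesterol-rich wrapping of nerve fibres, with collection at 24 h. There were 5 libraries in each group except E3 myelin, E3 untreated and Het myelin, which had 4 each, so 47 libraries fell into 10 groups. Whether the replicates of a group are separate animals is not stated in the labels. The p-values therefore rest on library-to-library spread that may be partly technical. Each genotype other than Het and KO is its own breeding line, and line and Apoe genotype cannot be told apart.

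Cholesterol synthesis runs from acetyl units through mevalonate and squalene to lanosterol, the earliest sterol with a closed ring system. The enzymes after lanosterol remove surplus methyl groups, move or remove double bonds, and finish the molecule. Transcription of most genes of the pathway is driven by the factor encoded by Srebf2, which is released from the endoplasmic reticulum when membranes hold little cholesterol and is retained when they hold much. Myelin taken up by a phagocyte delivers cholesterol, and oxysterols made from it act on the LXR receptors, whose targets Abca1 and Abcg1 carry cholesterol out of the cell. In bulk samples, fewer cells of a type and less RNA per cell cannot be told apart.

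In the GRCm38 annotation the genes lie on 7 chromosomes. Cyp51 (ENSMUSG00000001467.5, chr5:4081145-4104746, minus strand) encodes lanosterol demethylase, the enzyme that opens this part of the pathway. Tm7sf2 (ENSMUSG00000024799.15, chr19:6062821-6068373, minus strand) encodes a sterol reductase that removes the double bond left by demethylation, a reaction that Lbr also carries out. Msmo1 (ENSMUSG00000031604.10, chr8:64718139-64733792, minus strand), Nsdhl (ENSMUSG00000031349.4, chrX:72918557-72958514, plus strand) and Hsd17b7 (ENSMUSG00000026675.12, chr1:169949535-169969241, minus strand) encode an oxidase, a decarboxylating dehydrogenase and a ketosterol reductase that act in turn to remove the remaining pair of surplus methyl groups. Ebp (ENSMUSG00000031168.14, chrX:8185329-8193512, minus strand) encodes the isomerase that shifts a ring double bond. Sc5d (ENSMUSG00000032018.14, chr9:42251595-42264256, minus strand) encodes a desaturase, and Dhcr7 (ENSMUSG00000058454.15, chr7:143823145-143848410, plus strand) the reductase that makes cholesterol from dehydrocholesterol. Tm7sf2 shares 532 exon bases, 12.1% of its exons, with Vps51 on the same strand, and Cyp51 shares 166 bases, 3.76%, with Akap9 on the opposite strand, so TPM of these pairs may be divided between neighbours.

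Promoters are shown because the levels of most of these genes varied together, and because the first letters searched are bound by NF-Y, a known partner of the sterol-responsive factor. CCAAT, read on either strand, was found in windows of all 8 genes, in 8 of their 10 RefSeq windows of 300 bases, against 37.4% of the 32851 windows of all genes. GGGCGG, the core of the GC box bound by Sp1, was also found for all 8 genes, in 9 of their 10 windows, against 35.7% of windows. CACGTG, an E-box, was found for 3 genes (Hsd17b7, Sc5d and Dhcr7), in 3 of the 10 windows, against 7.15%. The 4 windows below (RefSeq, GRCm38.p6, the 200 bases before the start, 5′ to 3′ on the gene's strand) are those of Cyp51, Msmo1 and Dhcr7, the members with the largest spread between group means, and of Tm7sf2, which followed the others least. Capitals mark CCAAT or its reverse complement ATTGG. Dhcr7 has 3 RefSeq starts, and the one shown is the only one with CCAAT. The stretches of Msmo1, Dhcr7 and Tm7sf2 lie within the annotated gene spans given above, and that of Cyp51 lies partly within. The letters were chosen after the sequences had been seen, and a match is a description of the sequence only.
Cyp51 (chr5:4104698-4104897): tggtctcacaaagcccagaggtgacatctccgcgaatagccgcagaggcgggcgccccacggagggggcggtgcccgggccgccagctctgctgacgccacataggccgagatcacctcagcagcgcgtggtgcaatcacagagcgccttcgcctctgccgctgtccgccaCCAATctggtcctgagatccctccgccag
Msmo1 (chr8:64733579-64733778): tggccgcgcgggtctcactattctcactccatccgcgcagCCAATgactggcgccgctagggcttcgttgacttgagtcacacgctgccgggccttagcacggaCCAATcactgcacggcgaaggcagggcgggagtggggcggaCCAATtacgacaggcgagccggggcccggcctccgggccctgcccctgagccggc
Dhcr7 (chr7:143830014-143830213): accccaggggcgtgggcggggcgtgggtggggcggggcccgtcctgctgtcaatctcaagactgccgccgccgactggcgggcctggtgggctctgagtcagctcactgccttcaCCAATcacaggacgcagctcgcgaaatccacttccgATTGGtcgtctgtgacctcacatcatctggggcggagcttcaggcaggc
Tm7sf2 (chr19:6067851-6068050): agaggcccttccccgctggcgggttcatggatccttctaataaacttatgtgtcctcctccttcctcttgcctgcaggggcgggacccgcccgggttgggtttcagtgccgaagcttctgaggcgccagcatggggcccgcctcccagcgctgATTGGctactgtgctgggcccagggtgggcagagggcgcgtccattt
Cyp51 and Tm7sf2 hold a lone CCAAT in the printed stretch, 29 and 47 bases before the start, while Msmo1 holds 3 and Dhcr7 holds 2.

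Levels are in scaled TPM, the authors' TPM rescaled to the nuclear protein-coding genes and corrected by a library factor. Apoe itself matched the labels, at 78.2 ± 9.58 scaled TPM in KO myelin libraries, against 71031 ± 9902 in WT myelin libraries (SD, n = 5 each). Coding genes held 0.468% to 27.3% of the deposited TPM. The 4 Het libraries under 6% (myelin replicates 1 and 2, untreated replicates 3 and 5) were left out of the tests, which used 43 libraries. That limit was set with earlier results of these data known, and it marks no clear break. The highest library left out held 5.66% (Het untreated replicate 3), and the lowest kept 7.16% (E4 untreated replicate 1). Over the 43 libraries, microglial markers summed to 11732 to 15146 scaled TPM in E4, 10585 to 15030 in E3 and 10802 to 14327 in WT libraries. Their sums were 16007 to 19115 in KO and 15294 to 20726 in Het libraries. Astrocyte markers differed by line, with sums of 1370 to 3031 scaled TPM in E4, 876 to 1161 in E3, 59.1 to 121 in KO, 20.2 to 66.9 in Het and 123 to 165 in WT libraries. Fibroblast and pericyte markers summed to 106 to 190 scaled TPM in E4, 191 to 525 in E3, 31.5 to 652 in KO, 19.5 to 79.1 in Het and 735 to 1153 in WT libraries. Of the oligodendrocyte and myelin markers, Mog was at 0 in 23 of the 43 libraries. Cnp and Mbp were above 0 in all, with medians of 46.3 and 26.0 scaled TPM. Of the endothelial markers, Cldn5 was at 0 in 24 libraries. Flt1 and Pecam1 were above 0 in all, with medians of 8.19 and 4.04. Oligodendrocyte and myelin marker sums ran from 58.9 (Het untreated) to 118 (E4 myelin). Endothelial sums ran from 8.25 (Het myelin) to 26.1 (WT myelin), and neuron sums from 3.69 (KO myelin) to 82.3 (E4 untreated). Read depth is not known from TPM, and the precision of low values cannot be stated.

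Msmo1 was the most abundant of the enzymes, at 140.4 ± 46.9 scaled TPM (SD over 43 libraries, which includes the differences between groups), and stood above Sc5d in 43 of 43 libraries. Sc5d (55.1 ± 15.4), Tm7sf2 (52.8 ± 8.67), Ebp (44.8 ± 6.01) and Cyp51 (41.9 ± 14.3) followed. These neighbours were not cleanly ordered, with Sc5d above Tm7sf2 in 26 libraries and Ebp above Cyp51 in 26. Dhcr7 (23.7 ± 8.45), Nsdhl (16.5 ± 2.81) and Hsd17b7 (13.7 ± 3.09) were the lowest, and Cyp51 exceeded Dhcr7 in 42 of 43 libraries.

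The 8 enzymes summed to 275 ± 20.2 scaled TPM in E4 myelin libraries and 328 ± 24.3 in E4 untreated libraries (SD, n = 5 each). The sum was 295 ± 11.4 in E3 myelin and 342 ± 26.6 in E3 untreated libraries (n = 4 each). KO libraries held 544 ± 19.8 after myelin and 507 ± 28.1 untreated (n = 5 each). The Het libraries tested held 315 ± 98.7 after myelin (n = 2) and 406 ± 17.9 untreated (n = 3), and WT libraries 376 ± 34.8 after myelin and 434 ± 17.0 untreated (n = 5 each). Within each treatment the mean sum was highest in KO and lower in E4 and E3 than in Het and WT microglia, with a wide spread between the Het myelin libraries. Of the 10 groups, E4 myelin had the lowest mean of Msmo1, Sc5d, Cyp51, Dhcr7 and Hsd17b7, and KO myelin the highest mean of those 5 and of Nsdhl. Dhcr7 spanned the widest range, with a KO myelin mean 3.10 times the E4 myelin mean, and Ebp the narrowest, with a ratio of 1.39 between KO untreated and E4 untreated.

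**Figure D1:**
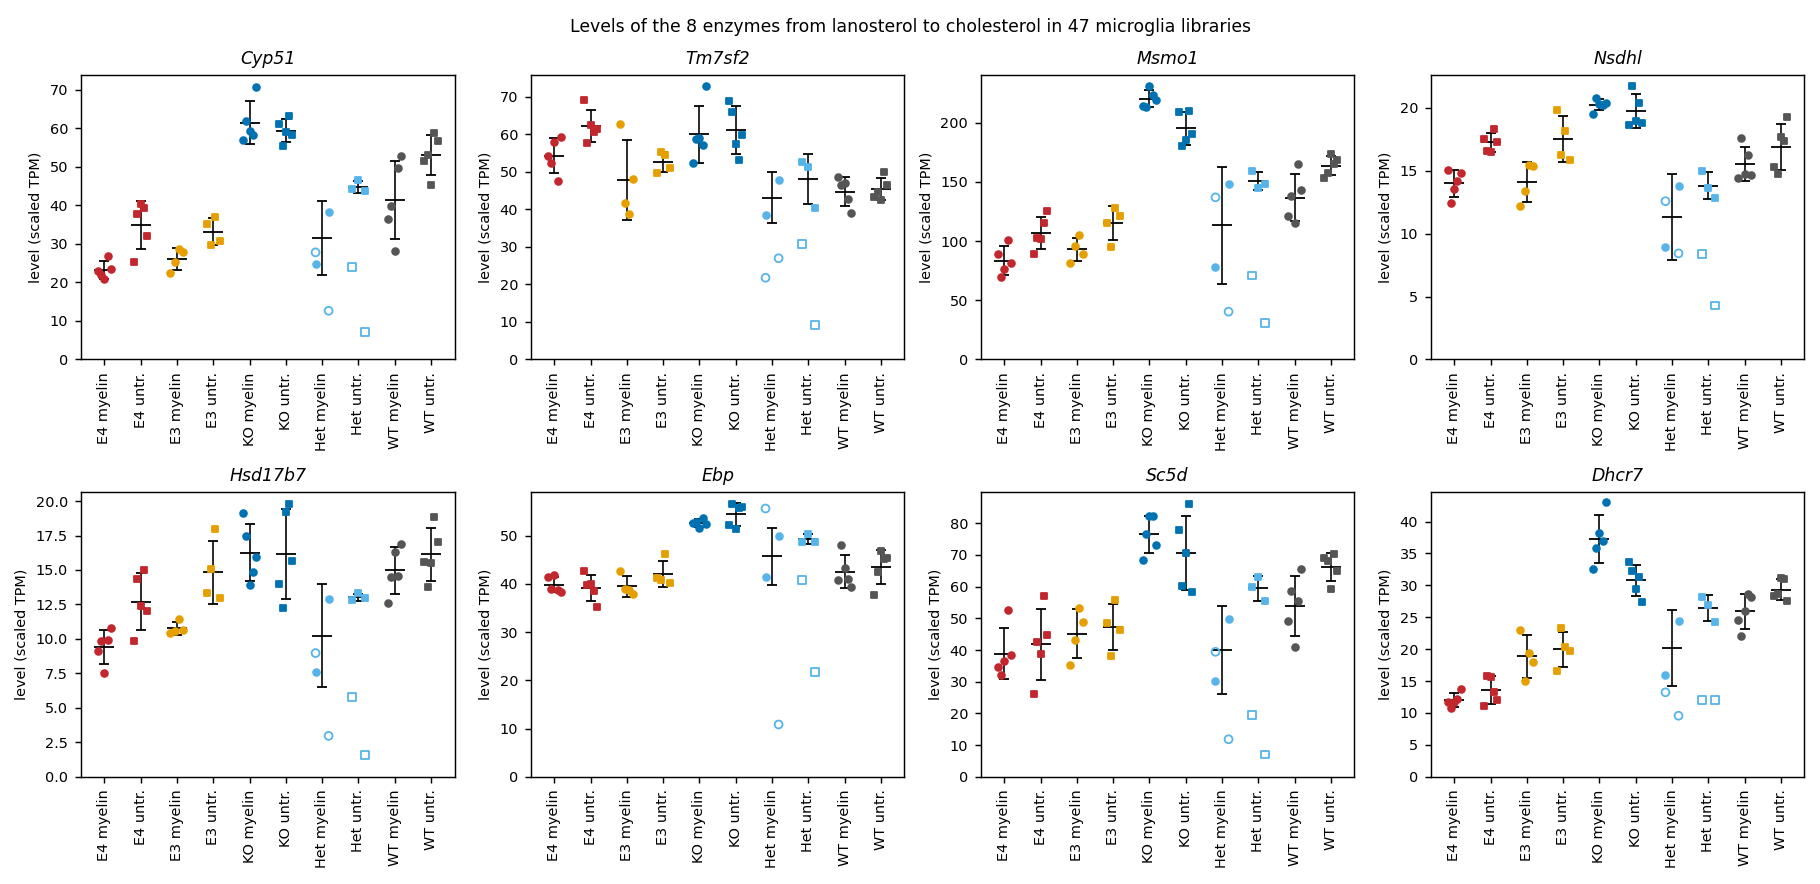
Level of each enzyme (y axis, scaled TPM, from 0) in 47 libraries by genotype and treatment (x axis, circles for myelin and squares for untreated), with mean and SD of the libraries tested. Hollow symbols are the 4 Het libraries left out of the tests. In 7 panels a KO group has the highest mean, and in the panel of Tm7sf2 the E4 untreated group has it.

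In E4 microglia Cyp51, Msmo1, Nsdhl and Hsd17b7, that is 4 of 8 members, fell after myelin, against 3.94% of the 10894 genes tested that fell. Cyp51 had 23.0, 21.9, 20.9, 26.8 and 23.6 scaled TPM in E4 myelin libraries, against 25.4, 37.7, 40.5, 39.3 and 32.1 in E4 untreated libraries. Myelin libraries were lower, and the groups overlapped only through the lowest untreated library, replicate 1. Cyp51 fell by 0.56 ± 0.13 on the log2 scale (SE, adjusted p = 0.00282, limma).

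Msmo1 had 89.1, 69.6, 76.4, 101 and 81.7 scaled TPM in E4 myelin libraries, against 89.4, 103, 101, 116 and 125 in E4 untreated libraries. It fell by 0.35 ± 0.11 on the log2 scale (adjusted p = 0.0371), with 1 myelin library inside the untreated range. Nsdhl had 15.1, 12.4, 13.5, 14.2 and 14.8 scaled TPM in E4 myelin libraries, against 17.5, 16.6, 16.5, 18.3 and 17.3 in E4 untreated libraries. Its groups did not overlap, as was so with myelin lower for 3.18% of all genes, and it fell by 0.28 ± 0.09 (adjusted p = 0.0288). Hsd17b7 had 9.12, 9.85, 7.49, 9.92 and 10.8 scaled TPM in E4 myelin libraries, against 9.85, 14.4, 12.4, 15.0 and 11.99 in E4 untreated libraries, and fell by 0.39 ± 0.13 (adjusted p = 0.0377). Again untreated replicate 1 lay within the myelin range.

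The other E4 members did not pass the test. Tm7sf2 changed by -0.19 ± 0.10, Dhcr7 by -0.15 ± 0.11, Sc5d by -0.08 ± 0.15 and Ebp by 0.02 ± 0.06 on the log2 scale. The median of the 8 members was -0.24, beside 0.03 over all genes tested. The E4 calls depended on single libraries and settings. Cyp51 stayed past the threshold in all 10 removals of 1 library. Msmo1 lost its call in 7 of them, Hsd17b7 in 6 and Nsdhl in 4, and the count ran from 1 to 3. The count was 1 (Cyp51) without myelin replicate 3 or untreated replicate 4, and 2 without myelin replicate 2, untreated replicate 2 or untreated replicate 3. It was 2 in the fit of only the E4 groups (Cyp51 and Nsdhl), where 3.59% of all genes fell. An unweighted fit of all 47 libraries gave 0, where 0.542% of all genes fell. Coding genes held 16.0% to 24.3% of TPM in E4 myelin libraries, against 7.16% to 16.1% in E4 untreated libraries. Of the markers of cell types, 3 of 10 microglial markers were lower and 1 higher, 2 of 3 endothelial markers lower, and 0 of 9 astrocyte markers called. The part of these differences in the result was not tested. Of all genes called in the E4 response, 32.5% were lower, or 48.2% with the coding total alone as the scale.

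In E3 microglia all 8 values pointed down and 0 of 8 members passed limma's threshold, where 5.15% of all genes did. At an unadjusted p under 0.05 there were 4, beside 24.3% of all genes, and a fit with library weights called 2 (Hsd17b7 and Msmo1), beside 17.6% of all genes. Hsd17b7 had 10.4, 10.55, 11.5 and 10.6 scaled TPM in E3 myelin libraries, against 13.3, 15.0, 18.01 and 12.99 in E3 untreated libraries. Nsdhl had 12.2, 13.4, 15.5 and 15.4 scaled TPM in E3 myelin libraries, against 19.8, 16.2, 18.2 and 15.9 in E3 untreated libraries. Neither gene overlapped between the groups, as was so for 7.86% of all genes with myelin lower, nor did Cyp51, with 22.4 to 28.6 scaled TPM in E3 myelin libraries and 29.7 to 36.9 in E3 untreated libraries. The changes were -0.42 ± 0.14 for Hsd17b7 (adjusted p = 0.0677), -0.30 ± 0.10 for Nsdhl (adjusted p = 0.0648) and -0.33 ± 0.14 for Cyp51 (adjusted p = 0.138). The median of the members was -0.23, beside 0.01 over all genes. Of the genes called in E3, 33.5% were lower, or 47.1% with the coding total alone.

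KO microglia did not lower these genes detectably. Limma called 0 of 8 members, where 2.29% of all genes passed, and 1 (Dhcr7) had an unadjusted p under 0.05, beside 15.5% of all genes. Neither the weighted nor the unweighted fit of 47 libraries called any member, where 5.89% and 0.119% of all genes passed. Cyp51 had 56.9, 61.9, 59.4, 58.2 and 70.7 scaled TPM in KO myelin libraries, against 61.0, 55.3, 58.9, 63.3 and 58.3 in KO untreated libraries. The groups overlapped, and the change was 0.05, with a 95% interval from -0.21 to 0.30. Msmo1 had 214, 213, 231, 223 and 219 scaled TPM in KO myelin libraries, against 209, 180.2, 186, 210.0 and 190.1 in KO untreated libraries. Every myelin library was above every untreated library, as was so for 4.81% of all genes. The change of 0.18 ± 0.11 did not pass (adjusted p = 0.478). Dhcr7 had 32.6, 35.9, 38.2, 36.9 and 42.99 scaled TPM in KO myelin libraries, against 33.7, 32.3, 29.4, 31.2 and 27.5 in KO untreated libraries, a change of 0.27 ± 0.11 (adjusted p = 0.211). The members' median was 0.04, equal to that over all genes.

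In WT microglia the 8 values were all negative, with a median of -0.14 beside -0.03 over all genes, and 0 passed in limma, where 6.16% of all genes did. An unadjusted p under 0.05 was found for 2, and for 19.2% of all genes. Cyp51 came nearest, with 36.4, 39.7, 28.1, 49.8 and 52.8 scaled TPM in WT myelin libraries, against 51.6, 52.9, 45.2, 58.7 and 56.7 in WT untreated libraries. The ranges overlapped, and the change was -0.38 ± 0.13 (adjusted p = 0.0652). Cyp51 passed without WT myelin replicate 4, without WT myelin replicate 5 and without WT untreated replicate 3. The weighted and unweighted fits of 47 libraries called 0 members, where 9.68% and 2.4% of all genes passed.

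Het microglia gave only 2 myelin and 3 untreated libraries to the test, and 0 of 8 members passed, where 0.119% of all genes did. Cyp51 had 24.7 and 38.3 scaled TPM in the Het myelin libraries tested, against 44.3, 46.6 and 43.6 in the Het untreated libraries tested. Its change was -0.53 ± 0.18 (adjusted p = 0.292), and 5 members had an unadjusted p under 0.05, beside 9.61% of all genes. With all libraries and weights, 6 members passed as lower, where 15.1% of all genes did. The count was again 6 without Het myelin replicate 4, where 4.69% of all genes were lower, which leaves 1 myelin library whose spread is taken from the other groups. The unweighted fit of 47 libraries called 0 members, where 0.266% of all genes passed.

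**Figure D2:**
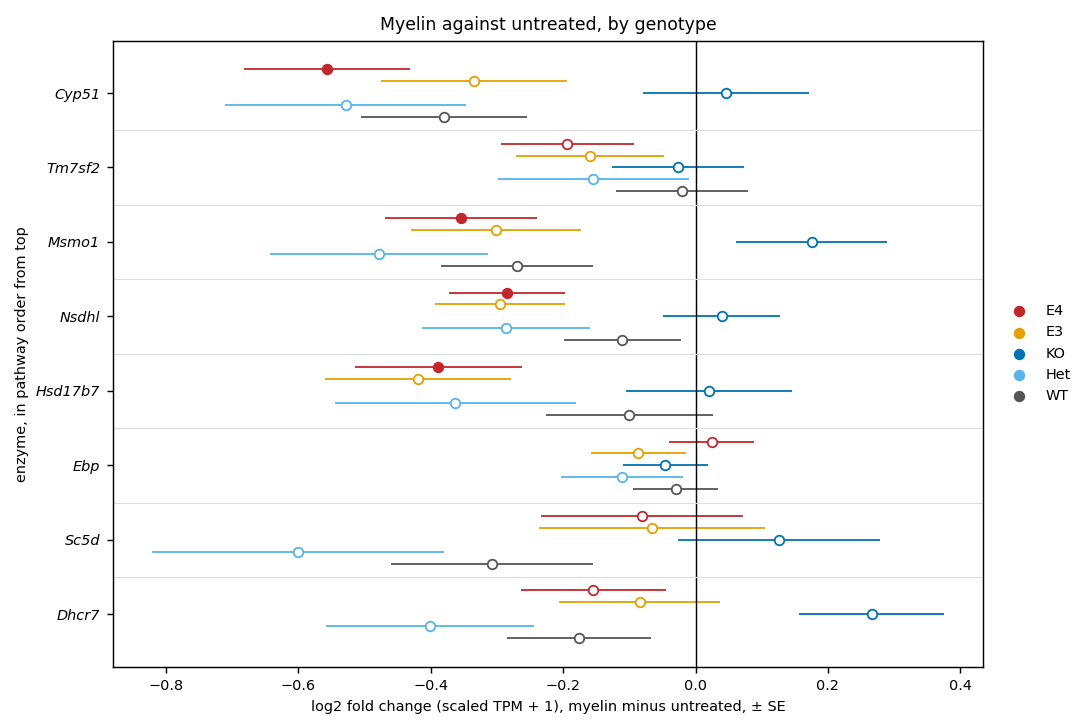
Myelin response of each enzyme (x axis, log2 fold change of scaled TPM + 1, myelin minus untreated, with SE) by genotype, in pathway order from the top. Filled symbols passed an adjusted p of 0.05: the 4 E4 values of Cyp51, Msmo1, Nsdhl and Hsd17b7. The KO values of Cyp51, Msmo1 and Dhcr7 lie at or right of 0, where the other genotypes lie left of it.

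A call in E4 and none elsewhere does not show that responses differ, so the differences were tested. The E4 response minus the E3 response gave 0 of 8 members and 0 of 10894 genes in limma, with 0 members and 466 genes at an unadjusted p under 0.05. Cyp51 differed by -0.22, with a 95% interval from -0.60 to 0.16. The E4 response minus the WT response gave 0 members, where 4.54% of all genes passed, with 0 at an unadjusted p under 0.05, beside 24.0% of all genes. For Cyp51 it was -0.18, with an interval from -0.54 to 0.18. The E3 response minus the WT response likewise gave 0 members, where 2.09% of genes passed, and 0 at an unadjusted p under 0.05, beside 21.8% of all genes. The weighted fit of 47 libraries called 0 members in these 3 differences. In that fit 0.34% of all genes passed in E4 minus E3, 9.78% in E4 minus WT and 10.2% in E3 minus WT. The unweighted fit of 47 libraries also called 0 members, but it passed only 0, 3 and 0 of 10894 genes in that order. Its 0 therefore says nothing about the members. Of all genes called in E4 minus WT 33.9% were lower, or 45.5% with the coding total alone. In KO minus WT the share was 57.8%, or 70.7%.

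Differences that involve the KO response were larger, with a members' median of 0.29 for KO minus WT, beside 0.05 over all genes, but they did not pass. KO minus WT gave 0 members, where 3.35% of all genes passed, and 3 at an unadjusted p under 0.05, beside 22.8% of all genes. Dhcr7 differed by 0.44 ± 0.15 (adjusted p = 0.0896), Msmo1 by 0.45 ± 0.16 (adjusted p = 0.0987) and Cyp51 by 0.43 ± 0.18 (adjusted p = 0.146). The weighted fit, the fit of only these groups and the fit with a replicate block each called 1 member, Msmo1, where 12.1%, 2.40% and 6.21% of all genes passed in these 3 fits. Comparisons with the KO response from the E4 and E3 side were added after the data had been seen. E4 minus KO gave 0 members, where 0.845% of genes passed, and 5 at an unadjusted p under 0.05, beside 11.1% of all genes, with -0.60 ± 0.18 for Cyp51 (adjusted p = 0.107) and -0.53 ± 0.16 for Msmo1 (adjusted p = 0.128). The weighted fit called 3 (Cyp51, Dhcr7 and Msmo1), where 5.01% of genes passed, and the fit of only these groups 2 (Cyp51 and Msmo1), where 1.93% did. Cyp51 passed without E4 untreated replicate 1. E3 minus KO gave 0 members, where 0.606% of genes passed, and 4 at an unadjusted p under 0.05, beside 13.4% of all genes, with 1 (Msmo1) in the weighted fit, where 3.71% of genes passed.

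The steps before lanosterol gave more calls than the steps after it. Of 10 genes listed for these steps, 7 fell in the E4 response, with a median of -0.45, where 3.94% of all genes fell. In the E3 response 6 fell, with a median of -0.38, where 1.73% of all genes did. Fdps, the farnesyl diphosphate synthase, fell in E4 microglia by 0.79 ± 0.08 (adjusted p = 8.01e-09), and Mvk, mevalonate kinase, by 0.67 ± 0.10 (adjusted p = 1.59e-05). Sqle, squalene epoxidase, fell by 0.44 ± 0.09 (adjusted p = 0.00132). Lss, which makes lanosterol, changed by -0.36 and did not pass. In KO microglia limma called 0 of 10, also with 0 at an unadjusted p under 0.05, and in WT microglia 1 (Fdft1). In the E4 response minus the KO response, 4 of the 10 were lower, among them Fdps at -0.84 (adjusted p = 4.1e-05), where 0.468% of all genes were. In the E4 response minus the WT response 3 were lower, where 1.54% of all genes were. No test of 1 arm against the other was made.

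Lbr, the reductase that shares its reaction with Tm7sf2, was not called in any myelin response. Against WT it was lower on the log2 scale in E4 (-1.48 untreated, -1.30 after myelin) and in E3 (-1.14 and -0.84). Untreated, it was lower in KO (-0.83) and Het (-1.30) too, and in KO after myelin it was not called (-0.17). Of 8 genes of sterol sensing and transport, 2 fell in E4 microglia, Srebf2 by 0.53 ± 0.07 (adjusted p = 3.83e-06) and Stard4, a carrier of sterols between membranes, by 0.46 ± 0.13 (adjusted p = 0.0178). In E3 microglia 1 fell, Srebf2, by 0.30 ± 0.08 (adjusted p = 0.024). Of 8 tested genes of sterol export and LXR signalling, 5 rose in E4 microglia, where 8.18% of all genes did. In E3 microglia 4 rose, where 3.42% did. Abcg1 led in both, at 2.37 ± 0.21 and 2.14 ± 0.23. Limma called 0 of these 8 in KO microglia and 0 in WT microglia, with 1 and 0 at an unadjusted p under 0.05.

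**Figure D3:**
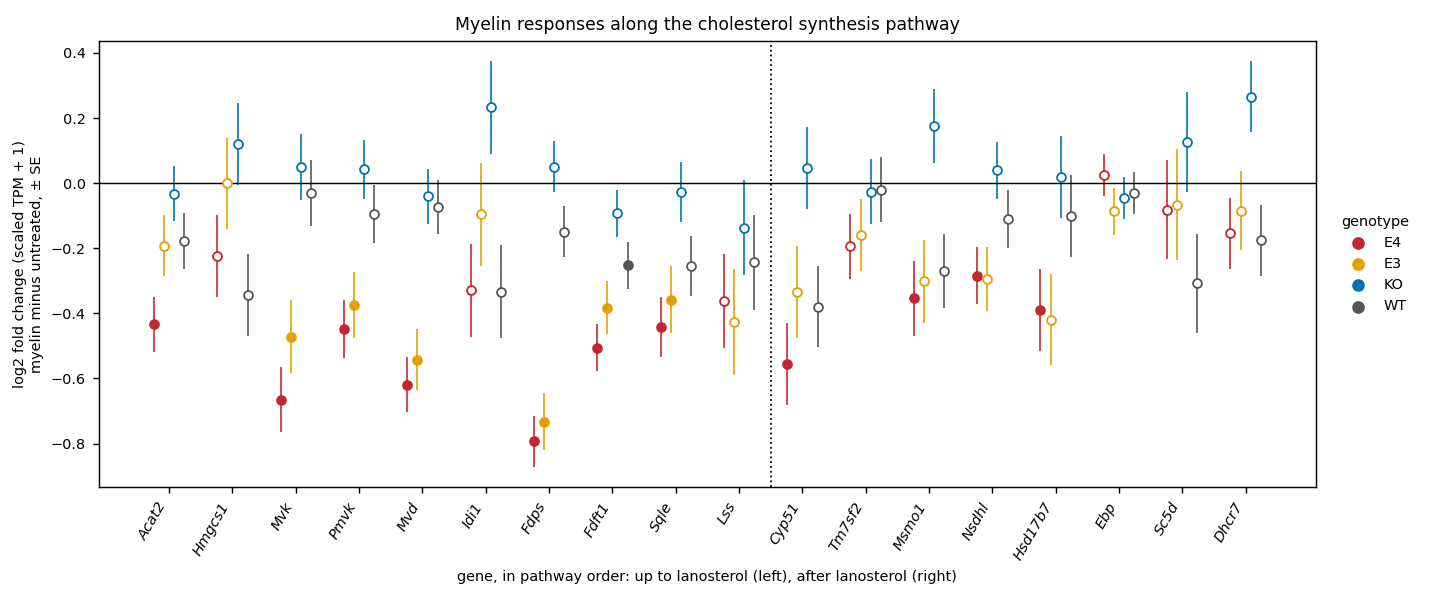
Myelin response (y axis, log2 fold change of scaled TPM + 1, myelin minus untreated, with SE) of 18 genes in pathway order (x axis), with a dotted line at lanosterol, for E4, E3, KO and WT. Filled symbols passed an adjusted p of 0.05. E4 has 7 filled values left of the line and 4 right of it, E3 has 6 and 0, KO has 0 and 0, and WT has 1 and 0.

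Dhcr7 was lower in E4 than in E3 libraries. After myelin it had 11.8, 10.8, 11.7, 12.2 and 13.7 scaled TPM in E4 libraries, against 23.1, 14.9, 19.5 and 17.96 in E3 libraries. Untreated, it had 11.1, 15.8, 15.7, 13.3 and 11.97 scaled TPM in E4 libraries, against 16.6, 23.3, 20.3 and 19.7 in E3 libraries. All E4 libraries were below all E3 libraries under both conditions, as was so for 6.54% of all genes after myelin and 9.91% untreated. The difference was -0.60 ± 0.12 on the log2 scale after myelin (adjusted p = 3.62e-04) and -0.53 ± 0.12 untreated (adjusted p = 0.00107).

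It was the only 1 of 8 members called between E4 and E3, both after myelin, where 5.12% of all genes were lower, and untreated, where 10.0% were. All removals of 1 library kept Dhcr7 past the threshold, and without E3 myelin replicate 1 Tm7sf2 was called too. In the unweighted fit of 47 libraries the adjusted p of Dhcr7 was 0.0593 after myelin and 0.0964 untreated. Cyp51 differed between E4 and E3 by -0.16 after myelin, with a 95% interval from -0.43 to 0.11, and by 0.06 untreated, from -0.21 to 0.33. Msmo1 differed by -0.16 after myelin, from -0.40 to 0.09, and by -0.11 untreated, from -0.35 to 0.14. Tm7sf2 did not overlap between E4 untreated libraries (57.5 to 69.2 scaled TPM) and E3 untreated libraries (49.7 to 55.3). The same was so with E4 higher for 7.15% of all genes, and its difference of 0.24 ± 0.11 did not pass (adjusted p = 0.126). Astrocyte markers were higher in E4 than in E3 microglia, 6 of 9 after myelin and 7 of 9 untreated, and fibroblast and pericyte markers lower, 1 of 5 after myelin and 4 of 5 untreated. Their part in the result was not tested.

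Set against WT, the E4 line had lower levels of most enzymes. After myelin 5 of 8 members were lower and Tm7sf2 was higher, where 29.6% of all genes were lower and 23.6% higher. Dhcr7 differed most, with 10.8 to 13.7 scaled TPM in E4 myelin libraries and 22.1, 24.6, 26.0, 28.1 and 28.7 in WT myelin libraries. These groups did not overlap, as was so with E4 lower for 18.3% of all genes. The differences were -1.05 ± 0.11 for Dhcr7 (adjusted p = 1.65e-10), -0.78 ± 0.13 for Cyp51 (adjusted p = 2.09e-06) and -0.70 ± 0.11 for Msmo1 (adjusted p = 2.33e-06). Hsd17b7 (-0.62 ± 0.13) and Sc5d (-0.47 ± 0.15) were lower too. Tm7sf2 was higher by 0.27 ± 0.10 (adjusted p = 0.02), and lost the call without E4 myelin replicate 5 or WT myelin replicate 5 (adjusted p = 0.0564 and 0.0692).

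Untreated, 6 of 8 members were lower and Tm7sf2 was higher in E4 than in WT microglia, where 38.2% of all genes were lower and 25.8% higher. Dhcr7 had 11.1 to 15.8 scaled TPM in E4 untreated libraries and 27.5, 28.3, 28.7, 30.9 and 31.1 in WT untreated libraries. Again the groups were far apart, and the difference was -1.07 ± 0.11 (adjusted p = 8.34e-11). Sc5d was at -0.69 ± 0.15, Msmo1 at -0.62 ± 0.11 and Cyp51 at -0.60 ± 0.13. Their E4 libraries lay below all WT libraries, as was so for 30.1% of all genes. Hsd17b7 at -0.33 ± 0.13 (adjusted p = 0.0225) lost its call without E4 untreated replicate 1 or WT untreated replicate 4, and Ebp at -0.14 ± 0.06 (adjusted p = 0.0485) lost it in 8 of 10 removals. Tm7sf2 had 69.2, 57.5, 62.4, 60.5 and 61.3 scaled TPM in E4 untreated libraries, against 43.4, 44.5, 42.5, 49.99 and 46.3 in WT untreated libraries. It ran against the 6 members that were lower, and was higher by 0.45 ± 0.10 (adjusted p = 1.87e-04), while Vps51, with which it shares exon bases, differed by 0.14 and was not called (adjusted p = 0.281).

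E3 differed from WT in the same direction in fewer members. After myelin Cyp51 (-0.62 ± 0.13), Msmo1 (-0.54 ± 0.12), Dhcr7 (-0.45 ± 0.12) and Hsd17b7 (-0.43 ± 0.13) were lower, 4 of 8, where 19.1% of all genes were. Untreated, Cyp51 (-0.66 ± 0.13), Dhcr7 (-0.54 ± 0.12), Msmo1 (-0.51 ± 0.12) and Sc5d (-0.49 ± 0.16) were lower, again 4 of 8, where 32.3% of all genes were. Sc5d lost its call without E3 untreated replicate 2 (adjusted p = 0.0561). Msmo1 had 81.8, 95.8, 105 and 89.0 scaled TPM in E3 myelin libraries and 115, 94.9, 128 and 121 in E3 untreated libraries, against 115 to 165 in WT myelin libraries and 154 to 174 in WT untreated libraries. All E3 libraries were below all WT libraries of the same treatment, as was so for 12.8% of all genes after myelin and 28.2% untreated. The contrasts of E4, E3 and KO with WT share the WT libraries.

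Much of the transcriptome differed between these lines and WT, and the split of calls moved with the scale. Lower genes made up 55.6% of calls in E4 against WT after myelin, or 42.4% with the coding total alone, and 59.7% untreated, or 49.1%. The corresponding shares for E3 were 54.9% after myelin, or 36.2%, and 58.5% untreated, or 46.9%. For E4 against WT untreated the median over all genes was -0.09, or 0.02 with the coding total alone. The members' median there was -0.46, or -0.35 with the coding total alone. Of the members called, Hsd17b7 and Ebp in E4 untreated, Sc5d in E4 after myelin, Sc5d in E3 untreated and Hsd17b7 in E3 after myelin lost their calls on that scale, and none changed direction. In E3 against WT untreated 1 further member was called there, as higher, beside 3 lower. In E4 against WT 8 of 9 astrocyte markers and 3 of 3 neuron markers were higher and 5 of 5 fibroblast and pericyte markers lower under both conditions. In E3 against WT the same number of astrocyte and neuron markers was higher under both conditions, and fibroblast and pericyte markers were lower, 5 of 5 after myelin and 2 of 5 untreated. Coding genes held 7.16% to 16.1% of TPM in E4 untreated libraries, against 20.5% to 27.3% in WT untreated libraries. The part of these differences in the result was not tested.

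**Figure D4:**
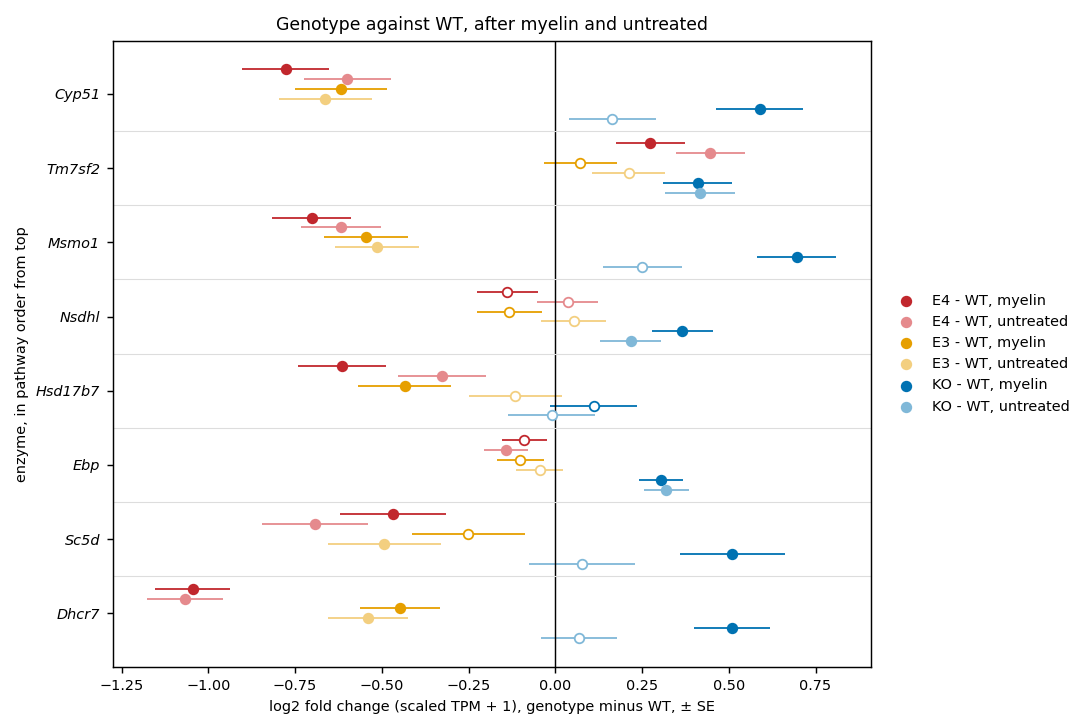
Differences of E4, E3 and KO from WT (x axis, log2 fold change of scaled TPM + 1, with SE), after myelin in dark and untreated in light colours, for each enzyme in pathway order. Filled symbols passed an adjusted p of 0.05. E4 and E3 lie left of 0 for Cyp51, Msmo1, Sc5d and Dhcr7 and right of 0 for Tm7sf2, and KO after myelin lies right of 0 for all 8, with Hsd17b7 not called.

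In KO myelin libraries 7 of 8 members were higher than in WT myelin libraries, where 30.1% of all genes were, and the same 7 did not overlap between the groups, as was so with KO higher for 19.1% of all genes. Msmo1 had 213 to 231 scaled TPM in KO myelin libraries, against 121, 138, 115, 165 and 143 in WT myelin libraries, and was higher by 0.70 ± 0.11 (adjusted p = 2.33e-06). Cyp51 was higher by 0.59 ± 0.13 (adjusted p = 1.26e-04), Sc5d by 0.51 ± 0.15 (adjusted p = 0.00463) and Dhcr7 by 0.51 ± 0.11 (adjusted p = 1.32e-04). Tm7sf2 (0.41 ± 0.10), Nsdhl (0.37 ± 0.09) and Ebp (0.30 ± 0.06) were higher too. Hsd17b7, at 13.9 to 19.1 scaled TPM in KO myelin libraries and 12.6 to 16.9 in WT myelin libraries, was not called, at 0.11 ± 0.13. All 10 removals of 1 library left 7 calls, and the unweighted fit of 47 libraries gave 2 (Dhcr7 and Msmo1). Of the 10 listed genes before lanosterol, 8 were higher, among them Hmgcs1 at 0.52 and Lss at 0.51.

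Untreated, 3 of 8 members were higher in KO than in WT microglia, where 25.9% of all genes were, a share near that of the members. Tm7sf2 had 68.9, 65.9, 57.3, 53.2 and 59.7 scaled TPM in KO untreated libraries, against 42.5 to 49.99 in WT untreated libraries, and was higher by 0.42 ± 0.10 (adjusted p = 4.89e-04). Its neighbour Vps51 was higher there too, by 0.34 ± 0.11 (adjusted p = 0.0106). Ebp had 52.1, 56.6, 51.4, 55.8 and 55.9 scaled TPM in KO untreated libraries, against 37.7 to 46.7 in WT untreated libraries, and was higher by 0.32 ± 0.06 (adjusted p = 4.53e-05). Neither gene overlapped between the groups, as was so with KO higher for 20.8% of all genes. Nsdhl was higher by 0.22 ± 0.09 (adjusted p = 0.0339), and lost the call without KO untreated replicate 2 or 4, or WT untreated replicate 1 or 2. Msmo1, at 180.2 to 210.0 scaled TPM in KO untreated libraries and 154 to 174 in WT untreated libraries, did not overlap but did not pass either (adjusted p = 0.06). Fibroblast and pericyte markers were lower in KO than in WT, 5 of 5 under both conditions. After myelin 7 of 10 microglial markers were higher and 1 lower, 5 of 9 astrocyte markers lower and 3 of 3 neuron markers lower. Untreated, 4 of 10 microglial markers were higher and 3 lower, 2 of 9 astrocyte markers lower and 1 higher, and 2 of 3 neuron markers lower. Their part in the result was not tested.

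Het microglia, with 3 untreated libraries tested, gave 2 calls against WT, and both depended on the libraries kept. Nsdhl was lower, at 12.8 to 15.0 scaled TPM in the Het untreated libraries tested and 14.7 to 19.2 in WT untreated libraries, a difference of -0.27 ± 0.10 (adjusted p = 0.0229). Ebp was higher, at 48.6 to 50.4 scaled TPM in Het and 37.7 to 46.7 in WT untreated libraries, by 0.18 ± 0.07 (adjusted p = 0.0357). These were 2 of 8 members, where 57.4% of all genes were called in either direction. With the 2 low-coding libraries included and no weights, 6 members were lower, where 46.5% of all genes were, and Ebp was reversed, at -0.10 (adjusted p = 0.689). The count was 0 without Het untreated replicate 2 or 4 and in the fit of only these groups, and 1 without Het untreated replicate 1 or WT untreated replicate 1, 2 or 5.

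The members did not all follow each other. Over the 43 libraries, the log2 level of Msmo1 correlated with the mean of the other 7 members at r = 0.958, Cyp51 at 0.939, Sc5d at 0.872, Dhcr7 at 0.831, Hsd17b7 at 0.775, Ebp at 0.736 and Nsdhl at 0.695. Tm7sf2 stood alone at 0.129. Among the other genes tested, some had log2 levels that varied closely with the members' mean over the libraries. They included Slc40a1 (r = 0.909), Rcbtb2 (0.906), Txnip (0.902), Ptpro (0.897), Sqle (0.896) and Hpgd (0.893). Sqle is an enzyme of the same pathway, and Slc40a1 encodes the iron exporter ferroportin. The libraries share genotype and treatment groups, so these values describe the order of the groups and carry no test.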

How the data were processed

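Polyadenylated RNA of 47 microglia libraries was sequenced after low-input amplification (per the labels' protocols). The authors deposited TPM for 53697 genes. Salmon 0.13.1, limma 3.40.6 and mm10 are named in the submitters' processing notes, with no role. No read depth is given, so no counting interval is printed. Nuclear protein-coding genes were rescaled to 1000000 per library and corrected by a trimmed mean of log ratios (30% of ratios, 5% of levels). The 10894 coding and lincRNA genes that reached 5 scaled TPM in 4 or more libraries were tested on log2(scaled TPM + 1). On that scale the fold changes of weakly expressed genes come out too small. A limma 3.58.1 trend model (R 4.3.3) with a mean per group used 43 libraries, and the 4 Het libraries under 6% coding content were left out. Tests were two-sided with Benjamini-Hochberg adjustment over all genes and a threshold of 0.05. There were 18 planned comparisons, and 2 were added after the data had been seen. The fit was tested on simulated data with known changes. Alternatives changed the libraries, weights, scale, pseudocount, filter, groups fitted and replicate block. All 8 members are named. Of other lists, at most the 2 lowest and the 2 highest calls are named, plus Lbr, Sqle and Lss, and other genes only where a result turns on them. A few genes of these lists are not reported here. Members and lists were chosen with earlier results of these data known. Identifiers matched the GENCODE M21 annotation for 99.95% of genes. Promoters are RefSeq's.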

Additional observations from a re-analysis of the deposited data

Results flagged for a closer look

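Ebp in E3 untreated replicate 3, at 46.2 scaled TPM, stood far above the other 3 libraries of its group, which held 40.1 to 41.1 scaled TPM. It was the only 1 of 80 groups of libraries examined for a library far from the rest, and chance alone flags about 1 group in 20.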

How the results depend on the processing

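The pseudocounts of 0.1 and 5 moved no count of members beyond 1.5 times. In the unweighted fit of all 47 libraries the member count was 0 in the E4 response, where 2.06% of all genes passed. It was 0 in E4 against E3 under both conditions, where 4.33% passed after myelin and 6.03% untreated. In E4 against WT it was 3 after myelin (34.7% of all genes) and 2 untreated (48.8%). In E3 against WT it was 0 after myelin (18%) and 1 untreated (35.9%). In KO against WT it was 2 after myelin (37.1%) and 0 untreated (40.2%). In Het against WT untreated it was 6 (64.7%), with Ebp reversed at -0.10. With all 47 libraries weighted it was 2 in the E3 response (17.6% of all genes) and 6 in the Het response (18.6%). In that fit it was 2 in E4 against E3 after myelin (27.2%) and 1 in Het against WT untreated (58.8%), no more than these shares. The weighted count was 1 in the KO minus WT difference (12.1%), 3 in E4 minus KO (5.01%) and 1 in E3 minus KO (3.71%). Without the filter on low values the member count was 2 in the E4 response (3.37% of all genes). In fits of only the groups compared it was 2 in the E4 response (11%), 1 in KO minus WT (2.4%) and 0 in Het against WT (55%). Such fits gave 2 in E4 minus KO (1.93%) and 1 in E3 minus KO (2.41%). With the coding total alone the count was 1 in Het against WT (58.3%). Other counts stayed within 1.5 times. Leaving out 1 library gave 1 to 3 in the E4 response, 0 to 6 in the Het response, 0 to 1 in the WT response, 0 to 2 in Het against WT, 1 to 2 in E4 against E3 after myelin and 0 to 1 in E4 minus KO. Of 39 calls, 30 were lost in the unweighted fit of 47 libraries (Ebp in Het against WT with its direction reversed), 7 with the coding total alone and 3 with weights; the cause was not tested.

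The labels' replicate numbers did not pair the samples. Over 20 pairs of same-numbered libraries the correlation of deviations ran from -0.197 to 0.455, with 4 over 0.1, and only 3 pairs matched best with their own number. With a replicate block the member count was 1 in the WT response (Cyp51), where 6.05% of all genes passed. It was 1 in the KO minus WT difference (Msmo1), where 6.21% passed. In Het against WT untreated it was 1 (Nsdhl), where 56.8% of all genes passed. The block lost 2 calls, Ebp in E4 against WT untreated and Ebp in Het against WT untreated. TPM hold no depth, so what depth limits cannot be stated.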
